A study of Mus musculus with 2 samples.

Results

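The 10 chaperonin genes described here are Tcp1, Cct2, Cct3, Cct4, Cct5, Cct6a, Cct7 and Cct8, which encode the 8 subunits of the cytosolic chaperonin, and Hspd1 and Hspe1, which encode the mitochondrial chaperonin and its lid. They were chosen by name as the listed subunits of both chaperonins, with no threshold on a ChIP-seq value, and are 10 of the 22359 protein-coding genes with an annotated transcription start site (TSS). Msl1 and Nsl1 were mapped by ChIP-seq in mouse embryonic stem cells (mESCs), a self-renewing pluripotent cell type. The comparison addresses where the MSL and the NSL complex, which are marked by these subunits, lie at the same genes. The groups are 1 Msl1 library, made with the anti-Msl1 antibody (3208), and 1 Nsl1 library, made with the anti-Nsl1 antibody (3130). Both came from wt mESCs of the 129P2/OlaHsd background labelled E14 and P26, cross-linked with formaldehyde and sheared to fragments of 200 to 500 bp, with no treatment or knockdown. According to the study's methods the cells were expanded on feeder cells and then grown without them before use.

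With 1 library per antibody there is no spread between replicates, no test between the antibodies can be made and no p-value is given. Intervals are 95% intervals of the counts and cover counting error only. The libraries also differ in the kit used (NEXTFlex for Msl1 and NEBNext for Nsl1) and in read length, so that antibody, kit and read length cannot be told apart. With 1 read kept per position and strand, 19483142 Msl1 reads of 50 bases and 24883001 Nsl1 reads of 36 bases on the nuclear chromosomes were used. ChIP-seq reads do not measure RNA, so the markers of the cell type give only Msl1 and Nsl1 levels. Within 500 bases of the TSS, Msl1 reached at least 3 times the local level at 2 of 6 mESC markers. It did so at 1 of 4 feeder fibroblast markers and 1 of 3 neural markers, and Nsl1 at 0 of these 13 genes. The shares of all protein-coding TSSs counted were 28.9% (Msl1) and 29.9% (Nsl1). Reads further downstream lie outside this window, and the study reports Msl1 binding at Oct4, Nanog and Sox2.

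Chaperonins are ring-shaped complexes that enclose an unfolded protein in a central cavity and let it fold there, driven by ATP. The cytosolic chaperonin, TRiC or CCT, is built from different but related subunits and is known above all for folding actin and tubulin. The mitochondrial form consists of Hspd1 (Hsp60) rings closed by Hspe1 (Hsp10), folds proteins imported into the matrix, and is also induced by heat shock and by mitochondrial stress. MSL and NSL are separate complexes that share the histone acetyltransferase Mof, which acetylates lysine 16 of histone H4. The chaperonin genes are housekeeping genes, active in dividing cells in general.

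The promoters of the chaperonin genes are mostly rich in CpG and mostly hold a GC box, and they differ in which other motifs they hold. In the 300 bases from 250 before to 50 after the TSS, 9 of the 10 promoters were CpG-rich (an observed to expected CpG ratio of at least 0.6 and at least 50% GC), compared with 42.5% of all protein-coding promoters. Cct5, with 47.0% GC and a CpG ratio of 1.15, was the exception. Stretches of up to 200 bases directly before the TSS and outside annotated exons are shown for 4 genes, because they hold the different arrangements found. Capitals mark matches, on either strand, to the GC box (GGGCGG), the CCAAT box, the TATA motif (TATAAA) and the Ets motif (CCGGAAG). The sequences are from mm9, 5′ to 3′ on the strand of the gene. They lie at chr10:116500871-116501070 (minus strand) for Cct2, chr11:22890319-22890518 (plus strand) for Cct4, chr5:130293130-130293314 (plus strand) for Cct6a and chr3:88100922-88101037 (plus strand) for Cct3.
Cct2: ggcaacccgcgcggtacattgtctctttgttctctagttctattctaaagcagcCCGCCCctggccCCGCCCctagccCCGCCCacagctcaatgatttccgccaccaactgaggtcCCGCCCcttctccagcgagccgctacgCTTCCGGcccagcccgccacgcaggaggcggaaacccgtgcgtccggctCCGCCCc
Cct4: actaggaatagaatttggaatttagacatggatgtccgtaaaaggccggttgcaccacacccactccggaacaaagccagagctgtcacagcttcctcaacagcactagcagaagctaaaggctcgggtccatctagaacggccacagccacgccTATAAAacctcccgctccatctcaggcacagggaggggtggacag
Cct6a: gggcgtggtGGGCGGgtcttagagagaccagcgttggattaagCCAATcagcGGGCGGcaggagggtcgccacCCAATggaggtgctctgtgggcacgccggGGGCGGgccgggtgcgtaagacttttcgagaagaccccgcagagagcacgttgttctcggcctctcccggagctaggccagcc
Cct3: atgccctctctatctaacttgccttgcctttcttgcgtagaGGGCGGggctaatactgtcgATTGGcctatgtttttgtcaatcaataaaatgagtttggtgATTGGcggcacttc
Cct2 has 5 GC boxes, Cct6a alternates GC boxes with CCAAT, and Cct4 has no GC box but a TATAAA that starts 45 bases before the TSS. The 116 bases of Cct3 are the whole stretch between its TSS and that of the gene 1700021C14Rik on the other strand. Over all 10 promoters a GC box was found in 9, compared with 43.9% of all protein-coding promoters and 76.6% of CpG-rich ones. CCAAT was found in 5 (37.8% of all, 36.9% of CpG-rich ones), the Ets motif in 4 (10.8% and 19.7%) and TATAAA in Cct4 alone (13.5% and 4.66%). An E-box CACGTG was found in Hspd1 alone (7.70% of all, 11.4% of CpG-rich ones) and the Nrf1 motif GCATGCGC in Cct5 alone (3.31% and 6.28%). The cAMP element TGACGTCA, CTCGCGAG and the YY1 motif AAGATGGCG were found in none of the 10, and in 2.30%, 1.15% and 1.86% of all promoters. With the TSS of the longest Hspd1 transcript, its promoter holds no E-box but 2 Ets matches. These matches are letters in a window and not measured binding sites.

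GAANNTTC was searched for as a short form of the heat shock element, the motif known for heat shock factor. It was found in Hspe1 alone of the 10 promoters as placed here (7.61% of all promoters, 4.66% of CpG-rich ones). It starts 68 bases before the Hspe1 TSS, within the stretch chr1:55144900-55144929 on mm9 (plus strand) shown here, in the first exon annotated for an Hspd1 transcript. It also lies 47 bases before the TSS of the longest Hspd1 transcript, so Hspd1 lacks it only with the TSS used here, which is further upstream. Capitals mark GAANNTTC and 2 Ets matches on opposite strands that overlap it and each other.
Hspe1 heat shock element: ccgttctaGAACCTTCCGGAAGgccccgcg
Hspd1 runs along the minus strand and Hspe1 along the plus strand of chromosome 1 from this shared promoter. The Hspd1 TSS used by most of its transcripts is at 55145087 and the Hspe1 TSS at 55144976, so that the genes overlap and the TSSs lie 111 bases apart. The longest Hspd1 transcript starts at 55144868, which leaves 107 bases between both TSSs. The windows of 500 bases on each side of the Hspd1 and Hspe1 TSSs share 889 of 1000 bases, so the values of these genes are not independent.

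Most chaperonin TSSs carried more Msl1 and more Nsl1 than most protein-coding TSSs, and the level of Nsl1 stood further above its surroundings. Levels are reads within 500 bases of the TSS divided by the local level, the read density at distances of 5 kb to 50 kb from the TSS, which was between 7.64 and 19.3 reads per kb. Msl1 was at least 3 times the local level at 8 of the 10 genes, compared with 28.9% of the 17391 protein-coding TSSs with at least 20 reads, and Nsl1 at 9 of the 10, compared with 29.9%. Both were so at 7 of the 10, compared with 14.5%. Among CpG-rich promoters the shares were 7 of 9 genes for Msl1 (43.8% of all) and 8 of 9 for Nsl1 (43.7%). Over the 10 genes the median was 3.75 for Msl1 (2.19 over all TSSs, 2.79 over CpG-rich ones) and 5.61 for Nsl1 (2.02 and 2.70). In the 31 proteasome subunit genes, another set of housekeeping genes, the medians were 2.99 for Msl1 and 4.93 for Nsl1, with 15 and 25 genes at 3 times or more.

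**Figure D1:**
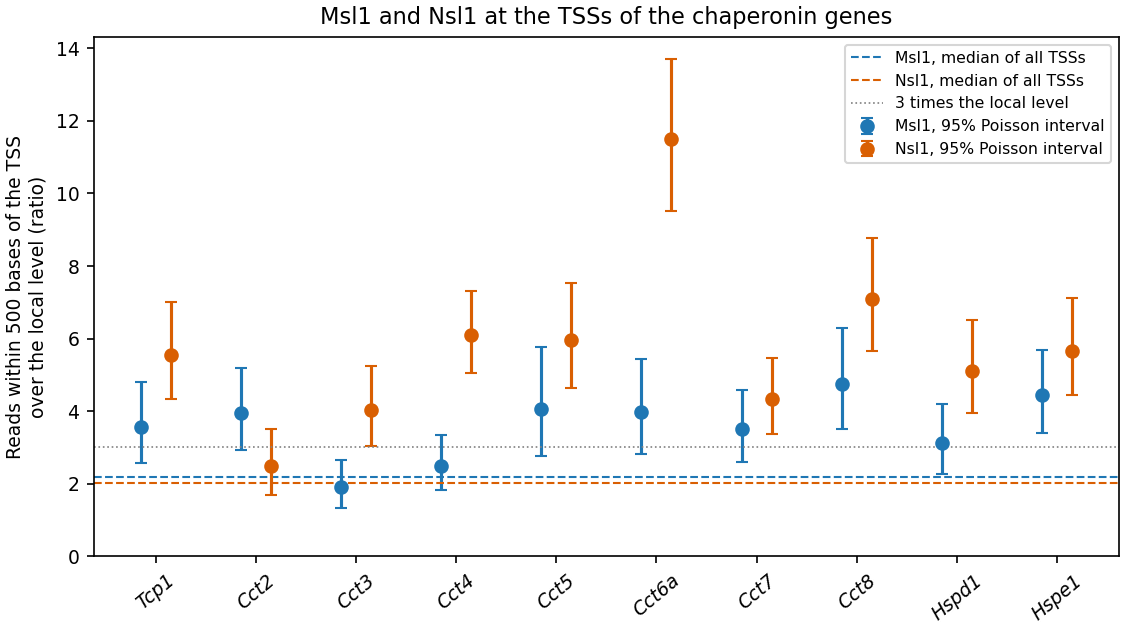
Ratio of Msl1 (blue) and Nsl1 (orange) reads within 500 bases of the TSS to the local level for each chaperonin gene, with exact 95% Poisson intervals. Dashed lines are the medians over all TSSs and the dotted line is 3 times the local level. Nsl1 is the higher ratio at every gene but Cct2.

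Among the cytosolic subunits, Cct6a, which encodes the zeta subunit, had the highest Nsl1 level. It held 39 Msl1 and 124 Nsl1 reads within 500 bases, or 3.98 times (2.83 to 5.43) and 11.5 times (9.53 to 13.7) the local level. Its Nsl1 ratio was above 98.4% of all TSSs, and its interval lay above those of the other 9 genes. Only 73.7% of the surroundings of Cct6a for reads of 50 bases and 71.4% for reads of 36 bases consist of sequence that occurs 1 time in mm9, the lowest shares among the 10 genes, while its 1000 bases around the TSS are unique throughout. Counted per unique position, the Cct6a ratios were 2.93 (2.08 to 4.01) for Msl1 and 8.18 (6.80 to 9.75) for Nsl1. The Nsl1 ratio then remained the highest of the 10, but its interval overlapped those of Cct8 (6.35, 5.07 to 7.85), Cct4 (5.77, 4.78 to 6.91) and Cct5 (5.53, 4.31 to 6.99).

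Cct8, which encodes the theta subunit, had the highest Msl1 ratio of the 10. There were 48 Msl1 and 85 Nsl1 reads, at 4.75 times (3.5 to 6.29) and 7.08 times (5.66 to 8.76) the local level. Cct4, the gene of the delta subunit, held the second highest number of Nsl1 reads. Its 45 Msl1 reads were 2.50 times (1.82 to 3.35) and its 118 Nsl1 reads 6.11 times (5.06 to 7.32) the local level. Cct4 and Cct3 were the genes past 3 times for Nsl1 but not for Msl1. With the parts within 2 kb of any TSS left out of the local level, Cct4 was at 3.14 for Msl1 and 9 of the 10 genes were past 3 times, while the share of all TSSs rose to 33.1%. At Cct3, the gene of the gamma subunit, 34 Msl1 reads gave 1.91 (1.32 to 2.66), the lowest Msl1 ratio and below that of most TSSs, and 56 Nsl1 reads gave 4.04 (3.05 to 5.24).

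Cct2, which encodes the beta subunit, showed the opposite order to the other 9 genes. It held 50 Msl1 and 32 Nsl1 reads, at 3.95 times (2.93 to 5.20) and 2.49 times (1.70 to 3.51) the local level. It was the lowest of the 10 for Nsl1 and the only gene past 3 times for Msl1 but not for Nsl1. The ratio of the Msl1 to the Nsl1 ratio was 1.59 (0.998 to 2.56) at Cct2 and below 1 at the other 9 genes, compared with 53.1% of all TSSs. The whole interval was below 1 at 6 of them, compared with 19.8%.

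The other cytosolic subunits lay between these. Cct5 (epsilon) held 31 Msl1 and 70 Nsl1 reads, for ratios of 4.06 (2.76 to 5.76) and 5.97 (4.65 to 7.54). Tcp1 (alpha) held 43 and 70 reads, for ratios of 3.56 (2.58 to 4.80) and 5.56 (4.33 to 7.02). Cct7 (eta) held 52 and 69 reads, for ratios of 3.5 (2.61 to 4.58) and 4.33 (3.37 to 5.48). Both libraries were past 3 times at these 3 genes, with overlapping intervals among them in each library.

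At the mitochondrial pair both libraries were past 3 times as well. Hspd1 held 43 Msl1 and 66 Nsl1 reads, for ratios of 3.12 (2.26 to 4.2) and 5.12 (3.96 to 6.51). Hspe1 held 61 and 73 reads, for ratios of 4.44 (3.39 to 5.70) and 5.67 (4.44 to 7.13). As given above, these windows share most of their bases. At the TSS of the longest Hspd1 transcript, Msl1 was 4.51 times and Nsl1 5.53 times the local level. The median over the 8 cytosolic subunits alone was 3.75 for Msl1 and 5.76 for Nsl1, next to the medians over all 10 genes.

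From the highest to the lowest, the Msl1 ratios ran from Cct8 through Hspe1, Cct5, Cct6a, Cct2, Tcp1, Cct7, Hspd1 and Cct4 to Cct3. The Nsl1 ratios ran from Cct6a through Cct8, Cct4, Cct5, Hspe1, Tcp1, Hspd1, Cct7 and Cct3 to Cct2. Neighbours in either order had overlapping intervals, except Cct6a and Cct8 for Nsl1. The whole interval lay above 1 at all 10 genes in both libraries, compared with 65.9% of all TSSs for Msl1 and 63.0% for Nsl1. It lay above 3 at 2 genes for Msl1 (9.98% of all TSSs) and at 9 for Nsl1 (18.6%). Counted per unique position, Msl1 was past 3 times at 6 of the 10 genes, without Cct6a and Hspd1 (2.89), and Nsl1 at 9. Cct6a and Hspd1 were thus no longer past 3 times in both libraries. All TSSs were not counted in this way.

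**Figure D2:**
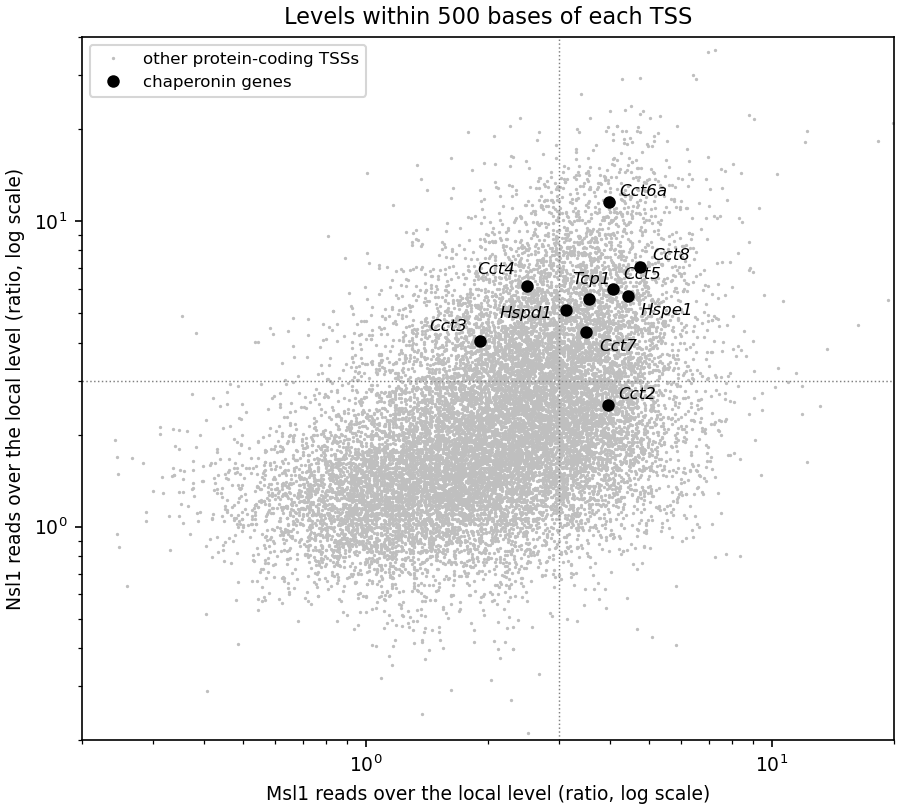
Msl1 ratio against Nsl1 ratio within 500 bases of the TSS, on log scales, for the chaperonin genes (black) and the other protein-coding TSSs with at least 20 reads (grey). Dotted lines are 3 times the local level, and 9 TSSs lie outside the axes. Of the 10 genes, 7 lie past both lines, Cct3 and Cct4 past the Nsl1 line only and Cct2 past the Msl1 line only.

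In the sum over the chaperonin genes, Msl1 and Nsl1 lay at different places: Nsl1 spanned the TSS, while Msl1 was near the local level at the TSS itself and high in the first kb of the transcribed part. Summed over the 10 genes in windows of 200 bases, Msl1 was highest at 250 bases downstream, with 164 reads or 6.28 times (5.36 to 7.32) the local level. At the TSS it was 1.03 (0.682 to 1.5), compared with 1.73 in the mean over all TSSs, and 850 bases downstream it was still 5.36 (4.51 to 6.33). Cct6a differed from the sum, with Msl1 at 4.08 times the local level in the window at its TSS. The ratio stayed at 50% of its highest value or more from 150 to 1150 bases, a span of 1000 bases, compared with 1200 bases, from 50 to 1250, in the lower mean profile of all TSSs.

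Nsl1 was highest at 100 bases, with 223 reads or 8.26 times (7.21 to 9.42) the local level, and was 7.08 (6.11 to 8.16) at the TSS. At 850 bases it had fallen to 1.78 (1.31 to 2.36). Its span at 50% or more ran from -400 to 300 bases, 700 bases in all, compared with 750 bases, from -350 to 400, in the mean over all TSSs. For both libraries the chaperonin genes thus had higher profiles than the mean. Their spans at 50% were not wider, but 50% of a higher maximum is a higher ratio. The spans therefore do not compare width at the same level. Msl1 also had a lower second maximum upstream, with 3.87 (3.15 to 4.70) at -450 bases, compared with 1.93 in the mean over all TSSs. This window differed between genes. It was at 12.4 at Hspe1, where it lies in the body of Hspd1, and at 0.395 at Cct2, 1.12 at Cct3 and 1.39 at Cct4. The other genes lay between 2.04 (Cct6a) and 5.80 (Tcp1). At Tcp1, Cct3, Cct5, Cct7 and Hspd1 this window likewise lies past the TSS of a gene on the other strand, described below. The summed profiles count the reads shared by Hspd1 and Hspe1 for both genes. In the windows next to the TSS the same reads can enter 1 sum for both genes, so the intervals there are too narrow.

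**Figure D3:**
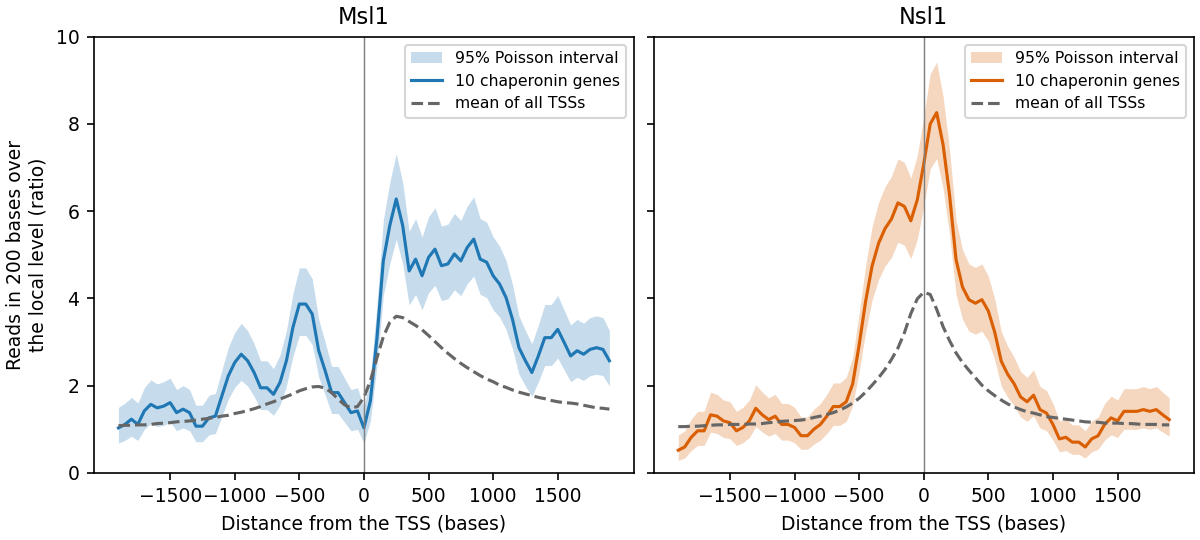
Reads in windows of 200 bases summed over the 10 chaperonin genes, divided by their summed local level, against the distance from the TSS in bases (positive is downstream), for Msl1 (left) and Nsl1 (right). Shading is the 95% Poisson interval, too narrow next to the TSS where Hspd1 and Hspe1 share reads, and the dashed line is the mean over all TSSs. Msl1 falls to 1.03 at the TSS, where Nsl1 is at 7.08.

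The downstream ratio sets the read density from 500 to 2000 bases past the TSS against that within 500 bases. It was higher for Msl1 than for Nsl1 at all 10 genes, compared with 69.1% of all TSSs and with 92.3% of the TSSs at which both libraries were at least 3 times the local level. Of the chaperonin genes 7 were such TSSs, and the downstream ratio was higher for Msl1 at all 7, near the share of such TSSs. In the proteasome subunit genes it was higher for Msl1 at 29 of 31, so the order is shared with that set. At 8 chaperonin genes, all but Cct2 and Cct7, the intervals of both libraries did not overlap, compared with 18.0% of all TSSs. Among TSSs past 3 times in both libraries this held for 6 of 7 chaperonin genes, compared with 41.8%. The median over the 10 genes was 1.04 for Msl1 and 0.226 for Nsl1, compared with 0.790 and 0.580 over all TSSs.

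For Msl1 the ratio was above 1 at 5 genes (31.7% of all TSSs), which means more reads per kb past 500 bases than around the TSS. Cct3 had the highest, with 92 downstream reads against 34 within 500 bases, a ratio of 1.8 (1.21 to 2.76). Hspd1 followed with 1.66 (1.15 to 2.42), Cct4 with 1.41 (0.977 to 2.05), Cct5 with 1.25 (0.793 to 2.0) and Cct7 with 1.13 (0.792 to 1.62). The reads at the TSS are the lower part of this ratio, so the low TSS levels of Cct3 and Cct4 raise it. With the TSS of the longest Hspd1 transcript, the Hspd1 value was 0.946. The other 5 genes lay between 0.634 (Hspe1) and 0.957 (Cct6a).

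Set against the local level in place of the TSS, the Msl1 density from 500 to 2000 bases downstream was highest at Hspd1, with 107 reads or 5.18 times (4.24 to 6.26), and at Cct5, with 58 reads or 5.06 times (3.84 to 6.54). Cct5 held fewer reads there than Cct3 (92) and Cct4 (95), over a lower local level. The rank of Hspd1 depends on the TSS used. Its highest Msl1 window lies at 550 bases. With the TSS of the longest transcript, 219 bases further downstream, that window falls within 500 bases of the TSS. Cct3 (3.44, 2.77 to 4.22) and Cct4 (3.52, 2.85 to 4.30) lay near the median of the 10 genes, 3.51, compared with 1.69 over all TSSs. Cct2 was lowest at 2.74 (2.04 to 3.59). For Nsl1 the median was 1.24, close to the 1.18 over all TSSs, and Cct7 was highest at 2.72 (2.10 to 3.46). The Nsl1 values of the other 9 genes ran from 0.880 (Hspe1) to 1.64 (Tcp1).

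For Nsl1 the downstream ratio of the chaperonin genes ran from 0.134 to 0.628, while the 75th percentile of all TSSs was 0.872. It was lowest at Cct6a, with 25 downstream reads against 124 within 500 bases, a ratio of 0.134 (0.0838 to 0.208), and at Cct8, with 18 against 85, a ratio of 0.141 (0.0799 to 0.237). It was highest at Cct7, with 65 against 69, a ratio of 0.628 (0.441 to 0.894). Cct7 has the longest first exon of the 10, 623 bases, and its Nsl1 reads were highest in that exon, 400 bases from the TSS. Only 3.99% of all TSSs had a lower Nsl1 downstream ratio than Cct6a, while Cct7 was near the middle of all TSSs, with 54.8% below it. As for Msl1, many reads at the TSS lower this ratio. Against the local level, Nsl1 downstream of Cct6a was at 1.54 (0.997 to 2.27) and of Cct8 at 1.00 (0.593 to 1.58), compared with a median of 1.18 over all TSSs.

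**Figure D4:**
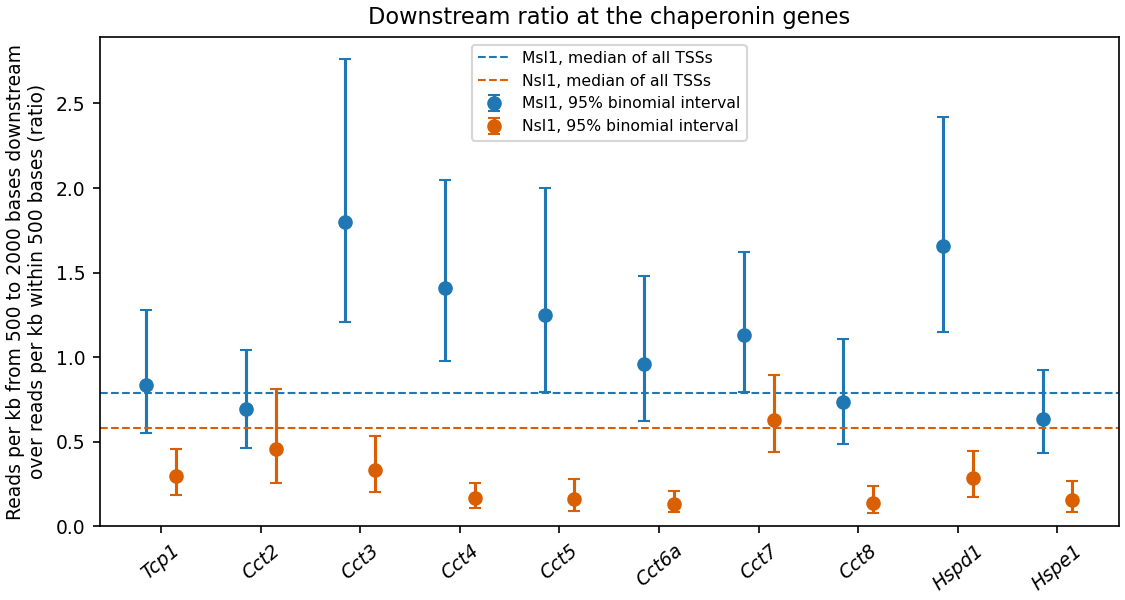
Downstream ratio of each chaperonin gene for Msl1 (blue) and Nsl1 (orange), as read density from 500 to 2000 bases past the TSS over read density within 500 bases of it, with 95% binomial intervals. Dashed lines are the medians over all TSSs. Msl1 is higher at all 10 genes, and the intervals overlap at Cct2 and Cct7 only.

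The reads within 2 kb of the TSS were weighted more towards Msl1 than those within 500 bases. Within 2 kb, reads per read of the library gave a ratio of Msl1 to Nsl1 of 2.40 (1.90 to 3.06) at Hspe1, from 209 Msl1 and 111 Nsl1 reads. The Hspd1 value, 2.36 (1.86 to 3.0), rests on nearly the same reads. Cct2 had 2.09 (1.52 to 2.88), from 108 and 66 reads. These 3 genes were at 2 or more, compared with 13.0% of the 14583 TSSs with at least 100 reads, and 0 genes were at 0.5 or less, compared with 1.46%. With each library set over its local level, none of the 3 was at 2 or more. Msl1 and Nsl1 within 2 kb were then 3.80 and 2.15 at Hspe1, 3.72 and 2.15 at Hspd1, and 2.13 and 1.28 at Cct2. Cct3 followed with 1.92 (1.49 to 2.48), and Cct6a was lowest with 0.832 (0.653 to 1.06), from 116 and 178 reads.

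The median Msl1 to Nsl1 ratio of the 10 genes was 1.40 within 2 kb, close to the 1.28 over all TSSs, and 0.780 within 500 bases. The direction thus changed with the window. Within 500 bases the ratio was below 1 at 8 genes (46.9% of all TSSs), and only Cct2 (2.0, 1.26 to 3.21) and Hspe1 (1.07, 0.747 to 1.52) were above it. Cct4, with 0.487 (0.338 to 0.692), and Cct6a, with 0.402 (0.273 to 0.580), were lowest.

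The position of the highest window of 200 bases was found for each gene, and its counts were near those of other TSSs. For Msl1 it was downstream of the TSS at 9 of the 10 genes, compared with 80.6% of the 5031 TSSs past 3 times, at a median of 362.5 bases (250 over those TSSs). Cct3 (1050 bases) and Cct4 (875 bases) were the furthest downstream, in their first introns, and Hspe1 was upstream at -425 bases. For Nsl1 it was downstream at 4 genes (44.6% of the 5205 TSSs past 3 times), at a median of -62.5 bases (0 over those TSSs), from -400 at Cct5 to 400 at Cct7. The Cct5 window lies past the TSS of Fam173b, a gene on the other strand that starts 271 bases upstream. The sharpest Nsl1 maxima were at Cct6a, with 68 reads at -300 bases (31.4 times the local level), at Cct4, with 75 reads at 75 bases in exon 1 (19.4 times), and at Cct8, with 39 reads at -50 bases (16.2 times). The sharpest Msl1 maxima were at Cct5, with 23 reads at 425 bases (15 times), and at Cct2, with 37 reads at 200 bases (14.6 times), both in intron 1. The Cct5 ratio stands over the lowest Msl1 local level of the 10 genes. The highest Msl1 windows of Hspd1 (34 reads) and Cct7 (30 reads) held more reads at lower ratios. The highest Msl1 window was further downstream than the highest Nsl1 window at 7 of the 10 genes. Among TSSs past 3 times in both libraries this held for 5 of 7 chaperonin genes, compared with 75.9%. Windows hold few reads, so single positions are uncertain.

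**Figure D5:**
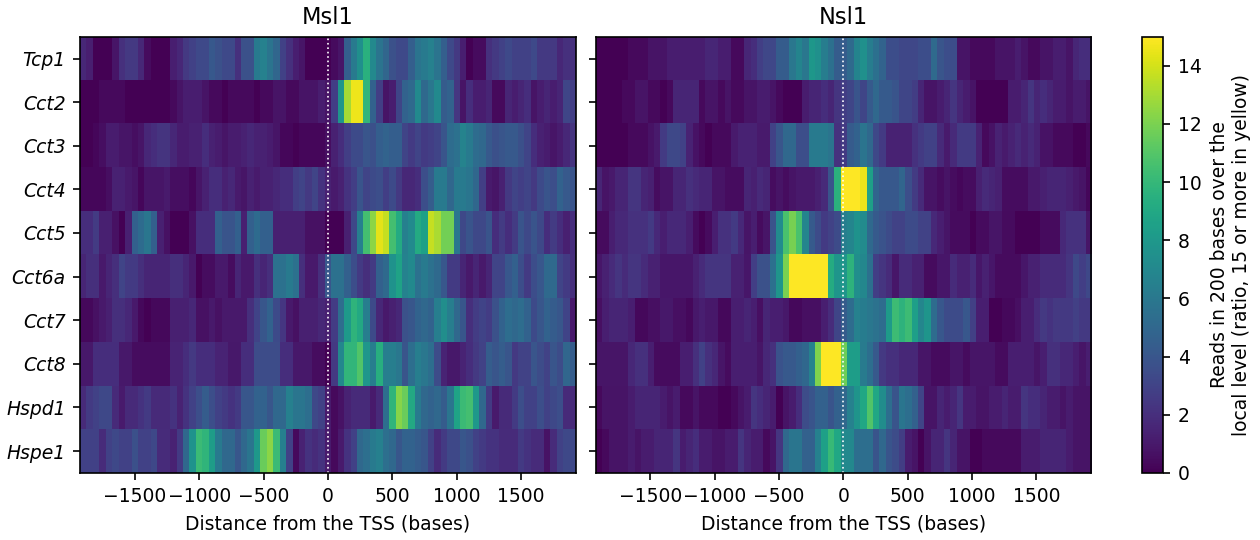
Msl1 (left) and Nsl1 (right) reads in windows of 200 bases over the local level (colour, capped at 15) for each chaperonin gene, against the distance from its TSS in bases. The highest Msl1 window lies downstream of the dotted TSS line at all genes but Hspe1, whose upstream side is the body of Hspd1. The Nsl1 maxima of Cct4, Cct6a and Cct8 lie within 300 bases of the TSS.

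Farther into the genes the difference continued at a lower level. From 2 kb after the TSS to the end of the gene, the Msl1 level per kb was above the local level, with its whole interval, at 9 of the 10 genes, compared with 38.9% of 15391 genes with a body of at least 1 kb, and the median ratio was 1.67 (1.07 over these genes). Cct5, with the lowest Msl1 local level of the 10, was highest with 2.50 (2.14 to 2.90) and Cct3 lowest of the 9 with 1.15 (1.04 to 1.26). For Nsl1 the median was 0.855 (0.997 over the same 15391 genes), and Cct2 alone was above 1 with its whole interval (17.7% of these genes), at 1.21 (1.03 to 1.40). Cct6a was at 0.413 (0.339 to 0.50) for Msl1 and 0.301 (0.241 to 0.372) for Nsl1. Only 23.0% (reads of 50 bases) and 22.8% (reads of 36 bases) of the Cct6a body is sequence that occurs 1 time in mm9. Per unique position its body ratios were 1.32 for Msl1 and 0.943 for Nsl1, within the range of the other genes.

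The upstream ratio sets the read density from 500 to 2000 bases before the TSS against that within 500 bases, so a high level at the TSS lowers it. For Nsl1 it lay between 0.156 (Cct6a) and 0.25 (Cct2), with a median of 0.203 (0.540 over all TSSs). Against the local level, the summed Nsl1 profile upstream lay on both sides of the mean over all TSSs, with 1.04 (0.690 to 1.5) compared with 1.2 at -1000 bases and 1.48 (1.06 to 2.02) compared with 1.12 at -1300 bases. The Msl1 upstream ratio varied more, from 0.0800 (0.0280 to 0.187) at Cct2 to 0.984 (0.703 to 1.38) at Hspe1, with a median of 0.474 (0.545 over all TSSs). At Cct2 this is 6 Msl1 reads upstream against 52 downstream. Cct2 was also the only gene with a higher upstream ratio for Nsl1 than for Msl1, compared with 46.7% of all TSSs. Upstream of Tcp1, Cct3, Cct5, Cct7, Hspd1 and Hspe1 lies a gene on the other strand, described below. Reads there cannot be assigned to 1 gene of the pair. The Msl1 upstream ratios of these genes ran from 0.295 (Cct7) to 0.984 (Hspe1), and those of the others from 0.0800 (Cct2) to 0.359 (Cct6a).

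Of the 10 genes, 6 have a protein-coding TSS on the other strand from 1000 bases upstream to 300 bases downstream of their own (8.64% of all TSSs). Besides Hspd1 with Hspe1, these are Tcp1 with Mrpl18, a gene of the mitochondrial ribosome, which overlap at TSSs that lie 16 bases apart, and Cct3, Cct5 and Cct7. The partner TSS lies 117 bases upstream of Cct3 (1700021C14Rik), 271 bases upstream of Cct5 (Fam173b) and 222 bases upstream of Cct7 (1700040I03Rik). Divergent pairs of this strict kind hold 7.25% of all TSSs. Reads were counted for 2 kb on each side of the middle between both TSSs.

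At the mitochondrial pair both libraries had more reads on the Hspd1 side, by shares within the ranges of strict divergent pairs given below. With the Hspd1 TSS used here, which also sets the middle, the pair overlaps and is not of that strict kind. Of the Msl1 reads 85 lay on the Hspe1 side and 123 on the Hspd1 side, which puts 40.9% on the Hspe1 side. Of the Nsl1 reads 42 and 69 did so, 37.8% on the Hspe1 side. Msl1 reads thus lay on both sides of the shared promoter, and the upstream maximum of Hspe1 at -425 bases is in the body of Hspd1.

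At the other pairs Msl1 was mostly on the chaperonin side. Cct3 had 118 Msl1 reads against 34 on the side of 1700021C14Rik, or 77.6%, while the Nsl1 reads were even, at 52 against 53. Cct5 had 85 Msl1 reads against 34 on the side of Fam173b, or 71.4%, and 52 Nsl1 reads against 60. At Cct7 both libraries were on the chaperonin side, with 125 against 37 Msl1 reads (77.2%) and 128 against 27 Nsl1 reads (82.6%). Tcp1 had 83 Msl1 reads against 52 on the side of Mrpl18 (61.5%) and 64 Nsl1 reads against 56. Over all divergent pairs with at least 50 reads, the larger side held a median of 59.6% of the Msl1 reads (25th to 75th percentile 54.4 to 65.9%) and 57.1% of the Nsl1 reads (53.3 to 62.9%). The Msl1 shares at Cct3, Cct5 and Cct7 and the Nsl1 share at Cct7 were above these ranges. At the mitochondrial pair, whose TSSs as used here overlap, the larger side was within them in both libraries.

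The windows of 500 bases around the partner TSSs overlap those of the chaperonin genes. Nsl1 was at 5.32 at Mrpl18, 4.04 at 1700021C14Rik, 5.15 at Fam173b and 2.51 at 1700040I03Rik. Msl1 was at 3.48, 1.46, 1.70 and 3.23 at the same genes. Fam173b, with 13 Msl1 reads against 31 at Cct5, had the lowest Msl1 count of the 4 partners. The intervals of the Msl1 ratios, 0.903 to 2.90 at Fam173b and 2.76 to 5.76 at Cct5, overlapped at their ends.

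The genes of other parts of the folding pathway, in lists chosen with earlier results of these data known, were counted in the same way, and their shares past 3 times the local level stand against 28.9% of all TSSs for Msl1 and 29.9% for Nsl1. Prefoldin delivers unfolded actin and tubulin to the cytosolic chaperonin. Of its 5 genes found in the annotation, 2 were past 3 times for Msl1, a share near that of all TSSs, and 4 for Nsl1, with the highest ratio at Pfdn2 for Msl1 (4.86) and at Vbp1 for Nsl1 (6.70), and the lowest at Pfdn5 for Msl1 (1.71) and Pfdn4 for Nsl1 (1.04). Of 3 genes of phosducin-like proteins, which bind the cytosolic chaperonin, 1 was past 3 times for Msl1 (Pdcl3, 3.02) and 2 for Nsl1, from 2.74 at Pdcl2 to 4.69 at Pdcl. Pdcl was at 1.00 for Msl1.

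Of 5 genes of chaperonin-like proteins and a testis subunit, 1 was past 3 times for Msl1 (Cct6b, 4.56) and 4 for Nsl1, with Mkks highest at 6.97 and Cct8l1 lowest at 2.0, as it was for Msl1 at 0.760. In 8 genes of mitochondrial folding and proteolysis, partners of Hspd1 and Hspe1 in the matrix, Msl1 was past 3 times at 5 and Nsl1 at all 8, with medians of 3.23 and 4.89 (2.19 and 2.02 over all TSSs). The Nsl1 ratios of these 8 were close together, from 4.36 at Clpp to 6.24 at Grpel2, while the Msl1 ratios ran from 1.15 at Trap1 to 5.57 at Clpx. The downstream ratio was higher for Msl1 at all 8, compared with 69.1% of all TSSs. The 92.3% of TSSs past 3 times in both libraries is not a like share, since Msl1 was past 3 times at only 5 of these genes.

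The 4 listed substrates of the cytosolic chaperonin were weighted more towards Msl1 than the chaperonin genes. Of Actb, Actg1, Tuba1b and Tubb5, 3 were past 3 times for Msl1, with Actg1 highest at 6.77 (5.55 to 8.17) and Tubb5 lowest at 2.02 (1.39 to 2.83). For Nsl1 0 of the 4 were, which for so few genes is not far from the 29.9% of all TSSs. Tuba1b was highest at 2.06 (1.39 to 2.94) and Tubb5 lowest at 1.17 (0.703 to 1.82). Their median Msl1 to Nsl1 ratio within 2 kb was 2.66, compared with 1.40 for the chaperonin genes. No test of this difference was made.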

How the data were processed

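Msl1 and Nsl1 ChIP-seq reads of wt mESCs were analysed, 1 library per antibody. The authors called bases with CASAVA 1.8.2, used Bowtie 0.12.7 to align the single-end reads to mm9, kept unique reads, and deposited the position and strand of each read. The deposited score column holds the value 255 throughout and was left out of the analysis. Of the nuclear reads, 18.3% (Msl1) and 4.56% (Nsl1) repeated a position and strand and were left out, as were mitochondrial reads. No Input was used.

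Each read was placed at its fragment's centre, with a shift of 105 bases for Msl1 and 65 for Nsl1, from the strand cross-correlation, and counted with Python 3.11.15, numpy 2.4.6, numba 0.67.0 and scipy 1.17.1. Plots used matplotlib 3.10.9. TSSs were taken from GENCODE on mm9, another release than the study's. The TSS shared by the largest number of protein-coding transcripts of a gene was used, and the most upstream one in a tie. At Tcp1, Cct3, Cct4 and Cct5 no TSS was shared by more than 1 transcript, so the most upstream one was used. All 10 genes passed the minimum of 20 reads. Intervals are exact Poisson or binomial intervals. The counting was tested on simulated data. Windows held 31 to 61 Msl1 and 32 to 124 Nsl1 reads.

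Genes named are the 10 members, their partners on the other strand, and the highest and lowest gene of each list in each library, together with all 4 substrate genes. Hspa5, Hsp90b1, Hsf1 and Hspa1b are named only to describe their list. The members follow a list of names with no cutoff on these reads, but that list, like the others, was drawn up with earlier results of these data known. Alternatives covered repeated reads, windows, local levels, shifts, TSS choice, the fold called and sequence uniqueness.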

Additional observations from a re-analysis of the deposited data

How the results depend on the processing

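No paired analysis was possible because there is 1 library per antibody, and for the same reason no replicate could be left out. Of 131 alternative values of medians and counts, 115 stayed within the counting error or within 1.5 times the count. Against the genome level the median ratio was 5.78 for Msl1 and 7.20 for Nsl1, and 53.1% of all TSSs were past 3 times for Msl1. With 1000 bases on each side, the Nsl1 median was 3.59 and 17.0% of TSSs were past 3 times. At 2 times, 55.9% (Msl1) and 50.6% (Nsl1) of TSSs were called, with all chaperonin genes but Cct3 for Msl1 and all for Nsl1. At 5 times the shares were 4.23% and 12.4%, with 0 chaperonin genes for Msl1 and 7 for Nsl1. Among CpG-rich promoters the Msl1 share was 43.8%. Single calls changed at Cct3 (Nsl1 2.92 with 1000 bases on each side, Msl1 4.46 against the genome level), Cct4 (Msl1 3.14 without TSS parts, 5.91 against the genome level) and Cct2 (Nsl1 3.29 against the genome level). The median Msl1 to Nsl1 ratio reversed to 0.780 within 500 bases, where 2 genes were at 1 or more and Hspd1 was at 0.832. With the local level subtracted, the Nsl1 downstream median was 0.0729. From 1000 to 2000 bases, 2 genes had a higher upstream ratio for Nsl1. With windows of 400 bases the median Msl1 position was 537.5 bases. The TSS of the longest transcript, the median without Hspd1 and Hspe1 and the count per unique position were added after seeing the data. The last left Msl1 past 3 times at 6 genes. With 31 to 124 reads in a window, ratios that differ by less than their intervals cannot be told apart at this depth.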

Other observations

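A list of 18 genes of Hsp70, Hsp90 and their partners was also counted, which includes the endoplasmic reticulum proteins Hspa5 and Hsp90b1 and the transcription factor Hsf1. Of these 18 genes, 13 were past 3 times the local level for Msl1 and 10 for Nsl1, compared with 28.9% and 29.9% of all TSSs, with medians of 3.29 and 3.61 (2.19 and 2.02 over all TSSs). Hsp90ab1, a constitutive cytosolic Hsp90, was highest for Msl1 with 98 reads at 5.05 times (4.10 to 6.16) and stood at 1.79 (1.21 to 2.56) for Nsl1. St13, a cofactor of Hsp70, was highest for Nsl1 with 140 reads at 12.2 times (10.3 to 14.4) and stood at 2.35 (1.60 to 3.34) for Msl1. The stress-induced Hspa1a was lowest in both libraries, at 0.501 for Msl1 and 0.449 for Nsl1. It held 9 and 7 reads, under the minimum of 20, and has the near-identical neighbour Hspa1b, so that its level from unique reads is uncertain. In the proteasome list Psma7 was highest for Msl1 (5.44) and Psmb5 lowest (0.748), while Psmb2 was highest for Nsl1 (12.7) and Psma6 lowest (1.01).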
